A study of Mus musculus with 4 samples.

Results

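The enzymes that write and erase DNA methylation were examined in c-Kit+ MLL-AF9 leukemia cells with and without overexpression of Suv39h1. The set holds 10 genes, listed by their function, with no measured value in the rule: the DNMT family genes Dnmt1, Dnmt3a, Dnmt3b and Dnmt3l, the demethylase genes Tet1, Tet2 and Tet3, and the maintenance factors Uhrf1, Uhrf2 and Hells. All 10 were found among the 23552 genes of the expression table, and 9 of them were among the 13736 genes that entered the test. Tet1 fell below the filter, a mean of at least 0.5 FPKM (fragments per kilobase of exon, scaled to a total per library).

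RNA was sequenced from 2 control libraries (replicates 3 and 4) and 2 Suv39h1-overexpression (SUV-OE) libraries (replicates 2 and 3), all of RNA-seq batch 2. Both groups were bone marrow c-Kit+ cells of C57BL/6 mice with acute myeloid leukemia driven by MLL-AF9, a fusion of the histone methyltransferase gene MLL (Kmt2a) with AF9 (Mllt3), and were taken when the mice were moribund. Control cells carried control-eGFP overexpression and SUV-OE cells carried Suv39h1-eGFP overexpression, which the study introduced by lentivirus into serially passaged leukemia cells before it transplanted sorted eGFP+ cells into sublethally irradiated recipients. Both groups therefore descended from passaged leukemia and shared the fusion gene, a viral vector and eGFP. The labels did not say whether the libraries of a group came from separate mice, so each p-value below measures the spread between these libraries, which may be technical.

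DNA methylation is a covalent mark on cytosine, mostly at CpG sites, that is copied after replication and removed by oxidation. DNMT1 restores the mark on the new strand at the replication fork, guided by UHRF1, which binds hemimethylated CpG and also recognizes histone H3 methylated at lysine 9, the mark that SUV39H1 deposits. DNMT3A and DNMT3B place new marks, and the TET enzymes oxidize 5-methylcytosine to 5-hydroxymethylcytosine and beyond. Dnmt3a and Tet2 are among the genes most often mutated in human clonal hematopoiesis and myeloid leukemia. Methylation of DNA itself was not measured here; the values below are transcript levels.

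Suv39h1 stood at 12.4 FPKM in both control libraries and at 75.3 and 81.2 FPKM in the SUV-OE libraries, a log2 fold change of 2.56 (SE 0.11, limma adjusted p = 0.00866). Over all genes, 177 of 13736 passed an adjusted p under 0.05, or 1.29%. Of these, 118 (0.859%) were higher and 59 (0.43%) lower in SUV-OE. Reads recovered from the FPKM values numbered 19910753 to 23358897 per library, against 16873770 to 19453058 for the total per library that the FPKM values imply, which was the smaller in every library. At that total, 3 reads on 1 kb of exon corresponded to 0.154 to 0.178 FPKM. All 12 leukemic progenitor markers were tested; 2 were above and 6 below both controls (25.4% and 28.4% of all tested genes were). Limma called none of the 12 and limma-voom called 1. Kit stood at 20.4 and 19.2 FPKM in the controls and at 28.6 and 25.4 FPKM in SUV-OE. Flt3, a cytokine receptor gene named after its values were seen, was the one that limma-voom called (log2 fold change -0.93, adjusted p = 0.0469) and stood at 10.3 and 9.08 FPKM against 6.20 and 4.18 FPKM. The summed level of 10 neutrophil markers was 990.4 and 2633 FPKM in the controls against 6833 and 8296 FPKM in SUV-OE, with 9 of 10 markers above both controls. Limma called 1 of them and limma-voom 6 (limma-voom called 6.11% of all genes). The 12 B-lymphoid markers summed to 22.2 and 30.8 FPKM against 43.9 and 101 FPKM, with 8 of 10 tested markers above both controls, none called by limma and 4 by limma-voom. The erythroid markers summed to 19.3 and 142 FPKM against 133 and 102 FPKM, so that the controls were farther apart than the SUV-OE libraries, and limma called 1 of 10 and limma-voom 3. The 8 monocyte markers summed to 481 and 833 FPKM against 939 and 1107 FPKM, and 6 of them were above both controls, none called by limma and 3 by limma-voom. The 9 T and NK markers with an entry summed to 75.6 and 115 FPKM against 78.5 and 84.9 FPKM, and 3 of these genes were tested. In such bulk samples fewer cells of a type and less RNA per cell cannot be told apart, and the part of these markers in the results below was not tested.

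None of the 9 tested genes was called at an adjusted p under 0.05 (limma with Benjamini-Hochberg adjustment), against 1.29% of all tested genes. At an unadjusted p under 0.05 there were 2, Uhrf2 and Hells, against 20.7% of all genes. Of the 9, 3 were higher and 6 lower in SUV-OE, where 47% and 53% of all genes were. The median of their log2 fold changes was -0.19, beside -0.02 over all genes, and turned to 0.01 without control replicate 3. With limma-voom scaled by total reads, which also took in Tet1, it was -0.08, beside 0.08 over all genes. Uhrf2 and Dnmt3a were above both controls in both SUV-OE libraries (25.4% of all tested genes were), and Uhrf1, Hells, Dnmt3b and Dnmt3l were below (28.4% of all). Dnmt1, Tet2 and Tet3 overlapped between the groups. Limma-voom on the recovered reads called 6.11% of 14274 genes and none of the 10, although Uhrf2 came close at an adjusted p of 0.0509.

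By level per length, the 10 genes spread widely. Uhrf1 (70.4 to 117 FPKM over the 4 libraries) and Dnmt1 (80.1 to 108 FPKM) were at the top and overlapped each other, and 97.6% and 97.5% of all genes lay below their means. Hells followed at 14.3 to 22.9 FPKM and overlapped no other gene of the set. Tet3 (10.1 to 13.5 FPKM), Dnmt3a (8.48 to 12.6 FPKM), Uhrf2 (6.87 to 11.6 FPKM), Dnmt3l (5.07 to 8.71 FPKM) and Tet2 (5.39 to 6.89 FPKM) formed a chain in which each overlapped the next. Dnmt3b lay below them at 3.59 to 4.60 FPKM, and Tet1 was at the bottom at 0.218 to 0.433 FPKM. In both groups Uhrf1 and Dnmt1 were above every de novo writer and every eraser in each library.

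**Figure D1:**
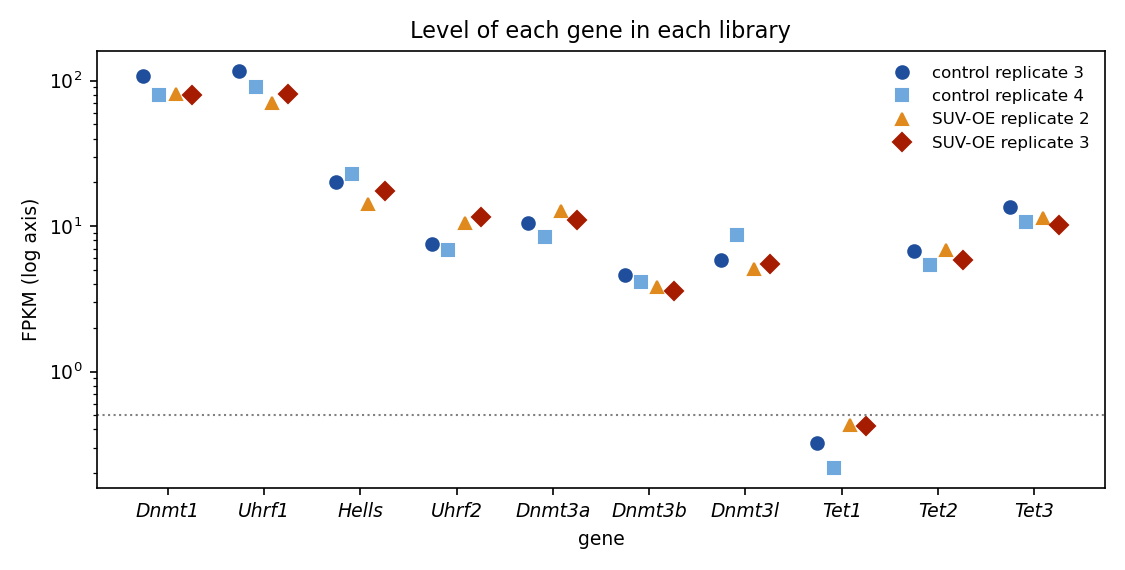
FPKM of the 10 genes (log axis) in the 4 libraries, one symbol per library, with the 0.5 FPKM filter as a dotted line. Uhrf1 and Dnmt1 sit highest, at 70.4 to 117 FPKM, and Tet1 lies under the filter in every library; the Uhrf2 symbols of SUV-OE (10.5 and 11.6 FPKM) lie above those of the controls.

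Dnmt1 (chromosome 9, 20907209 to 20959888, minus strand, mm10) encodes the maintenance methyltransferase. It stood at 108 and 80.1 FPKM in control replicates 3 and 4 and at 81.2 and 80.4 FPKM in SUV-OE replicates 2 and 3. Control replicate 3 was high, and the other 3 libraries were nearly level. The log2 fold change was -0.20 (95% confidence interval -0.67 to 0.27, adjusted p = 0.576 by limma), and without control replicate 3 it was 0.01.

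Uhrf1 (chromosome 17, 56303321 to 56323486, plus strand) encodes the factor that brings DNMT1 to hemimethylated sites. Its level was 117 and 90.0 FPKM in the controls and 70.4 and 80.5 FPKM in SUV-OE. Both SUV-OE libraries were below both controls. The mean was 104 ± 19.3 FPKM (SD, n = 2) in the controls and 75.5 ± 7.09 FPKM (SD, n = 2) in SUV-OE, and the log2 fold change was -0.44 (SE 0.18, 95% interval -0.92 to 0.03). The limma adjusted p was 0.263, so the difference did not pass the test. The value was -0.25 without control replicate 3, -0.63 without control replicate 4 and -0.25 with quantile normalization.

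Hells (chromosome 19, 38930915 to 38971051, plus strand) encodes LSH, a SNF2-family chromatin remodeler needed for methylation of repeats. It measured 20.2 and 22.9 FPKM in the controls and 14.3 and 17.5 FPKM in SUV-OE. The groups did not overlap, and the log2 fold change of -0.42 had a 95% interval of -0.81 to -0.04. The unadjusted limma p was 0.0379 and the adjusted p 0.214.

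Uhrf2 (chromosome 19, 30030513 to 30093722, plus strand) encodes the paralog of UHRF1, which binds 5-hydroxymethylcytosine and cannot replace UHRF1 in maintenance. Its level went the other way, from 7.56 and 6.87 FPKM in the controls to 10.5 and 11.6 FPKM in SUV-OE, a ratio of means of 1.53. Every SUV-OE value was above every control value. The log2 fold change was 0.55 (SE 0.12, 95% interval 0.23 to 0.86), which was the largest in size among the 9 tested genes, with an unadjusted limma p of 0.00678 and an adjusted p of 0.113. Over the alternatives run, its log2 fold change ranged from 0.48 to 0.71 and its adjusted p from 0.0344 to 0.585; it passed only when limma-voom scaled the recovered reads by their totals (log2 fold change 0.71, adjusted p = 0.0344), which called 7.04% of all genes and raised the median of all genes to 0.08.

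Both paralogs were also compared within each library; such a ratio does not show which of them changed. Percents here are of FPKM, and log2 ratios are of FPKM + 1, so that scaling between libraries enters them only through the pseudocount. The Uhrf2 level was 6.45% and 7.63% of the Uhrf1 level in the controls and 14.9% and 14.4% in SUV-OE. The log2 ratio differed by 0.99 between the groups with no overlap, and leaving out any 1 library gave 0.86 to 1.12; without the pseudocount it was 1.06. This ratio was chosen after its values were seen, and the exact two-sided permutation test of 2 against 2 libraries gave p = 0.333, the smallest it can give. The ratio of Uhrf1 to Dnmt1 was 109% and 112% in the controls and 86.8% and 100.1% in SUV-OE. It was lower in SUV-OE by 0.24 on the log2 scale, without overlap (exact permutation p = 0.333), and by 0.14 without SUV-OE replicate 2.

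Maintenance methylation runs with DNA replication, so the level of a list of 30 replication genes was set beside these values. All 30 S-phase genes were lower in SUV-OE (53% of all tested genes were), 26 of them below both controls (28.4% of all), and their median log2 fold change was -0.41, with a range of -0.71 to -0.10. Their sum was 1821 and 1622 FPKM in the controls and 1183 and 1337 FPKM in SUV-OE. None was called by limma and 15 had an unadjusted p under 0.05 (20.7% of all), while limma-voom called 1. Relative to the mean of this list within each library, Uhrf1 differed by -0.04 and Hells by -0.01 on the log2 scale, and both overlapped between the groups. Uhrf2 differed by 0.96 and Dnmt3a by 0.70, each above both controls (exact permutation p = 0.333 for each). Since the list itself was lower in SUV-OE, 66.3% of all tested genes were above both controls on this ratio, with a median difference of 0.38. Dnmt1, which the same comparison left overlapping, differed by 0.21. Against the list, Dnmt3b differed by 0.22, Tet1 by 0.58, Tet2 by 0.48 and Tet3 by 0.26, each above both controls, and Dnmt3l by 0.03 with overlap.

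**Figure D2:**
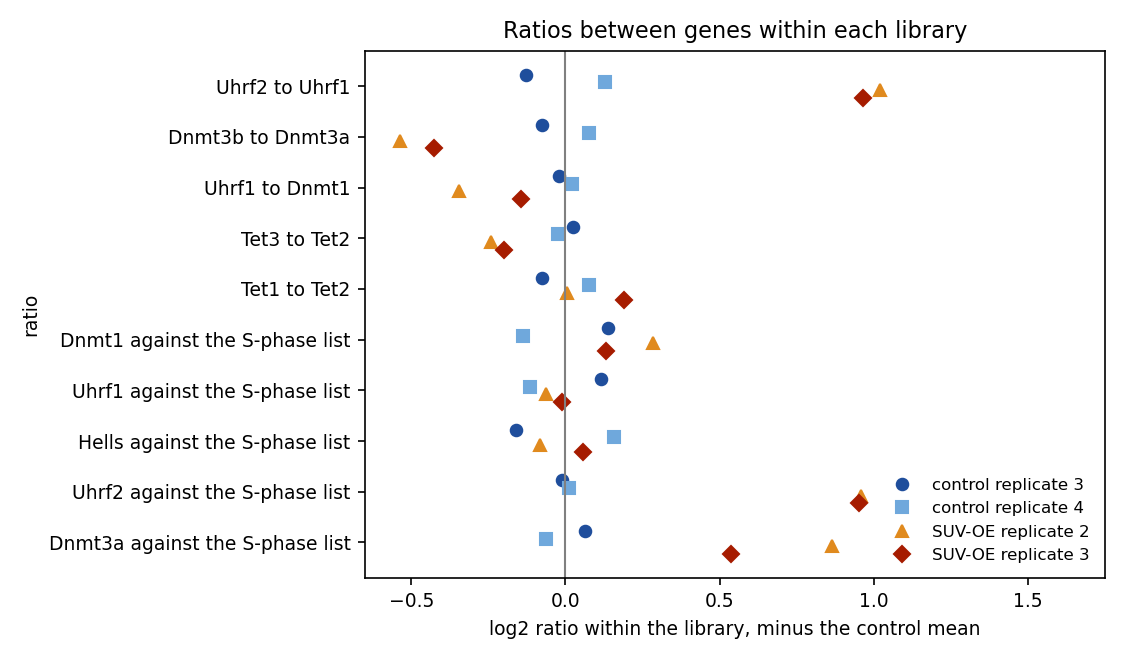
Log2 ratios within each library, minus the control mean, for 5 pairs of genes and for 5 genes against the mean of the S-phase list. Each symbol is 1 library. The Uhrf2 to Uhrf1 ratio lies near 1 in both SUV-OE libraries, and Uhrf1 and Hells against the S-phase list show no separation of the groups.

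The promoter windows of these genes were read for the consensus of E2F, the transcription factor family that drives S-phase genes. A window was 250 bases before to 50 after a RefSeq start (GRCm38.p6), and all 10 genes had at least 1, 17 in all. The consensus was searched on both strands in 4 forms of 8 letters: TTTCCCGC, TTTCGCGC, TTTGCCGC and TTTGGCGC. At least 1 form was present in 2.26% of all 32851 windows and in 4.90% of the 9191 tested genes with a window. It was present for 3 of the 10 genes, Dnmt1, Uhrf1 and Hells, and for 10 of 24 S-phase genes with a window. Uhrf2 and the other 6 genes had no match in these windows. The sequences around the matches are shown for the 3 genes with a match, beside Uhrf2 for contrast, with the match in capitals and the gene's strand written 5′ to 3′:
Dnmt1 (chr9:20952824-20952853, minus strand, 219 bases before the start, match on the opposite strand): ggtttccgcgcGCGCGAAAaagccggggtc
Hells (chr19:38930917-38930946, plus strand, 62 bases before the start): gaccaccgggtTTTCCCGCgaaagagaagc
Uhrf1 (chr17:56304063-56304312, plus strand, match 185 bases before the start): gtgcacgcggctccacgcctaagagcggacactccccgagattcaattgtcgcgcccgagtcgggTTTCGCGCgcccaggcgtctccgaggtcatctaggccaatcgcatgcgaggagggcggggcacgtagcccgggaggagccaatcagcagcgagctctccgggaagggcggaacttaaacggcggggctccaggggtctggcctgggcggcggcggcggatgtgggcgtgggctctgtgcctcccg
Uhrf2 (chr19:30030263-30030512, plus strand, no match, all 250 bases before the start): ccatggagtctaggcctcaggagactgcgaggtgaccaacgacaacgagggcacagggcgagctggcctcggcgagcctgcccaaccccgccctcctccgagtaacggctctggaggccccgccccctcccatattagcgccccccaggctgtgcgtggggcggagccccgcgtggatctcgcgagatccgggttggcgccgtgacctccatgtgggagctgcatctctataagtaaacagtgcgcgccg
The Dnmt1 and Hells stretches overlapped an annotated exon of the gene in GENCODE M21, and the Uhrf1 and Uhrf2 stretches overlapped none. Dnmt1 had a further match, TTTGGCGC, 34 bases into the transcript. Uhrf1 had a second window with no match and 12 CpG sites. Dnmt1 also had windows with no match, with 12 and 2 CpG sites. The Uhrf1 window with the match held 33 CpG sites and the Uhrf2 window 28, where the median window held 7. The matches are matches of letters only, and binding was not measured.

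Among the de novo writers, Dnmt3a (chromosome 12, 3806007 to 3914443, plus strand) was the more abundant. It measured 10.4 and 8.48 FPKM in the controls and 12.6 and 10.97 FPKM in SUV-OE. Both SUV-OE libraries were above both controls, but SUV-OE replicate 3 exceeded control replicate 3 only slightly. The log2 fold change was 0.29 (95% interval -0.09 to 0.68, limma adjusted p = 0.343), and it was 0.16 without control replicate 4.

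Dnmt3b (chromosome 2, 153649450 to 153687730, plus strand), the second de novo enzyme, gave 4.60 and 4.14 FPKM in the controls and 3.84 and 3.59 FPKM in SUV-OE. The groups did not overlap, and the log2 fold change was -0.19 (95% interval -0.52 to 0.14, limma adjusted p = 0.456). Relative to Dnmt3a in the same library, Dnmt3b stood at 44.0% and 48.9% in the controls and at 30.4% and 32.7% in SUV-OE. On log2(FPKM + 1) that ratio was lower in SUV-OE by 0.48 (by 0.56 without the pseudocount), with -0.56 to -0.41 when any 1 library was left out and an exact permutation p of 0.333.

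Dnmt3l (chromosome 10, 78041947 to 78063622, plus strand) encodes a cofactor without catalytic activity that stimulates both de novo enzymes, best known from germ cells. It gave 5.88 and 8.71 FPKM in the controls and 5.07 and 5.53 FPKM in SUV-OE. SUV-OE was lower without overlap, and the controls were farther apart than the groups' nearest values. The log2 fold change was -0.38 (95% interval -0.89 to 0.14, limma adjusted p = 0.356). It was -0.13 without control replicate 4 and -0.62 without control replicate 3. Its promoter windows held 3 to 6 CpG sites, below the median of 7. The Aire gene shares 67 exon bases with Dnmt3l on the other strand, 2.24% of its exon length, and Aire was at 0.132 FPKM or less in every library.

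Of the erasers, Tet2 and Tet3 overlapped between the groups and Tet1 was below the filter. Tet2 (chromosome 3, 133463679 to 133545139, minus strand) gave 6.70 and 5.39 FPKM in the controls and 6.89 and 5.90 FPKM in SUV-OE. SUV-OE replicate 2 was highest and control replicate 4 lowest. The log2 fold change was 0.07 (95% interval -0.33 to 0.47, limma adjusted p = 0.818). Leaving out 1 library gave -0.06 to 0.21, with the direction turned without control replicate 4 or SUV-OE replicate 2. Its promoter window held 57 CpG sites, more than 99.8% of all windows.

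Tet3 (chromosome 6, 83362373 to 83459084, minus strand) was the most abundant eraser, at 13.5 and 10.6 FPKM in the controls and 11.3 and 10.1 FPKM in SUV-OE. The groups overlapped, with a log2 fold change of -0.15 (95% interval -0.55 to 0.25, limma adjusted p = 0.626). Leaving out 1 library gave -0.31 to 0.01, with the direction turned without control replicate 3. Within a library, Tet3 stood at 201% and 197% of Tet2 in the controls and at 165% and 171% in SUV-OE, a difference of -0.22 on log2(FPKM + 1) and of -0.25 without the pseudocount, with no overlap (exact permutation p = 0.333).

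Tet1 (chromosome 10, 62804570 to 62908996, minus strand) was at 0.322 and 0.218 FPKM in the controls and at 0.433 and 0.424 FPKM in SUV-OE, from 92, 54, 113 and 111 recovered reads. Both SUV-OE libraries were above both controls. The gene was below the filter and so had no limma test on FPKM. Limma-voom gave a log2 fold change of 0.68 (95% interval 0.02 to 1.34) with an adjusted p of 0.197. On the log2(FPKM + 1) scale, which understates differences of low genes, the fold change without the filter was 0.17. Relative to Tet2 in the same library, Tet1 stood at 4.80% and 4.04% in the controls and at 6.28% and 7.20% in SUV-OE. With the pseudocount of 1 these log2 ratios overlapped and differed by 0.10 (exact permutation p = 0.667; 0.0064 to 0.19 with any 1 library left out), and without it they differed by 0.61.

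**Figure D3:**
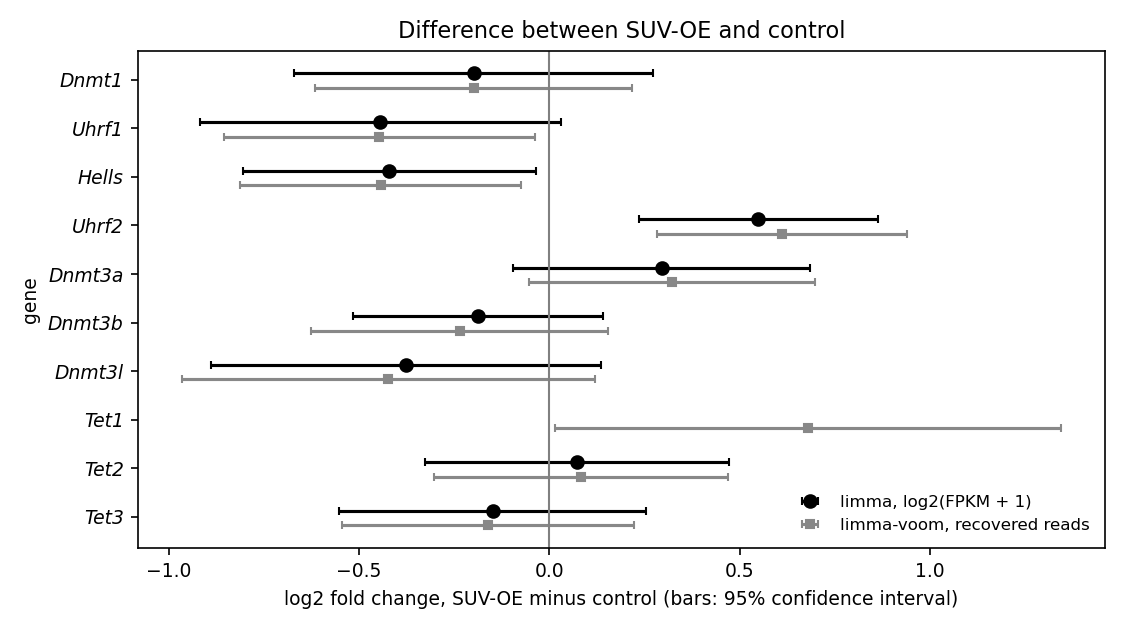
Log2 fold change between SUV-OE and control (x axis) for each of the 10 genes, by limma on log2(FPKM + 1) in black and by limma-voom on recovered reads in gray, with 95% confidence intervals. Both estimates of Uhrf2 and of Hells exclude 0 before adjustment for the number of genes tested, and Tet1 has a limma-voom value only.

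Trdmt1, whose product belongs to the DNMT family by sequence but methylates transfer RNA, is no member of the set and is given for comparison. It stood at 4.53 and 5.21 FPKM in the controls and at 3.09 and 2.48 FPKM in SUV-OE. The groups did not overlap, and the log2 fold change was -0.64 (95% interval -1.03 to -0.25, limma adjusted p = 0.129).

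Further genes of the pathway were read from lists written from general knowledge. Of 12 partners of maintenance at the replication fork, 11 were tested: 9 were lower and 2 higher in SUV-OE (53% and 47% of all genes), 7 were below both controls and 2 above (28.4% and 25.4% of all), and none was called. The list's median was -0.31 on the log2 scale (-0.02 over all genes), and -0.37 to -0.15 with 1 library left out. Pcna and Chaf1a are also on the S-phase list. Pcna, the sliding clamp that recruits DNMT1, stood at 242 and 276 FPKM in the controls and at 158 and 200 FPKM in SUV-OE (log2 fold change -0.54, limma adjusted p = 0.219). Lig1, the ligase of the lagging strand, stood at 79.1 and 62.4 FPKM against 49.8 and 50.7 FPKM (log2 fold change -0.47, limma adjusted p = 0.198). Both genes were below both controls, and Lig1 in the SUV-OE libraries was nearly level.

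Among factors that direct de novo methylation no gene was called. Of 8 listed, 6 were tested, of which 2 were higher and 4 lower, and the list's median was -0.05 on the log2 scale. Morc2a, which encodes a silencing ATPase of the HUSH pathway, was at 13.5 and 12.1 FPKM in the controls and 15.5 and 15.1 FPKM in SUV-OE (log2 fold change 0.24, limma adjusted p = 0.314). Kdm1b, a histone H3 lysine 4 demethylase needed for oocyte methylation, was at 4.34 and 5.24 FPKM against 3.89 and 4.11 FPKM (log2 fold change -0.21, limma adjusted p = 0.450). The readers of methylated DNA gave 4 higher and 6 lower of 10 tested, none called and a median of -0.02. Among them Mbd2 was at 46.7 and 40.8 FPKM against 38.3 and 30.9 FPKM, and Zbtb38 at 6.96 and 5.80 FPKM against 7.91 and 7.45 FPKM. Neither passed the test (limma adjusted p = 0.310 and 0.383).

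Active demethylation is completed by base excision repair, and here limma called 1 of 13 tested genes, a lower one (1.29% of all genes were called, 0.43% as lower). Apex1, the endonuclease that cuts at the abasic site left by the glycosylase, fell from 34.0 and 32.2 FPKM in the controls to 16.4 and 17.5 FPKM in SUV-OE. The libraries within each group were close and the groups far apart, with a log2 fold change of -0.93 (SE 0.11, limma adjusted p = 0.0434). Of the other 12, 6 were higher and 6 lower, and the median of the list was -0.09. The call was lost with a pseudocount of 0.1 (adjusted p = 0.052), with quantile normalization (0.051) and without the variance trend (0.057). It was kept with limma-voom (0.0163), median-of-ratios scaling (0.0437), a mean of at least 1 FPKM (0.0394) and a robust trend (0.0413). With no filter, or with any 1 library left out, limma called no gene at all, Suv39h1 included, and the log2 fold change of Apex1 was -0.97 to -0.88 with a library left out.

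Of 11 tested genes among TET partners and the enzymes and carriers of their cofactors, limma called 1, a higher one (0.859% of all genes were called as higher). Cxxc5, a CXXC-domain protein known to bind TET2, rose from 0.317 and 0.235 FPKM in the controls to 2.16 and 2.48 FPKM in SUV-OE, from 14, 9, 87 and 100 recovered reads. Its control values were below the filter of 0.5 FPKM, so it entered the test through the SUV-OE libraries. The log2 fold change was 1.38 (SE 0.16, limma adjusted p = 0.0434) on the log2(FPKM + 1) scale and 3.02 by limma-voom. The call was lost with a pseudocount of 0.1 (adjusted p = 0.055) and with quantile normalization (0.060), as well as in the fits that called no gene. It was kept with limma-voom (0.0097), median-of-ratios scaling (0.042), a mean of at least 1 FPKM (0.049), no trend (0.033) and a robust trend (0.039). In the whole list 4 genes were higher and 7 lower, and the median was -0.17. It was -0.04 with quantile normalization and -0.21 to -0.12 with 1 library left out. Limma-voom scaled by totals, which also read genes below the filter, gave 0.0025.

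The methionine cycle supplies S-adenosylmethionine, the methyl donor of every DNMT. Of 16 genes listed 13 were tested, with 4 higher and 9 lower, 7 below both controls (28.4% of all genes were), none called and -0.19 as the list's median on the log2 scale. Mat2a, which makes S-adenosylmethionine, stood at 68.3 and 78.1 FPKM in the controls and at 54.3 and 56.8 FPKM in SUV-OE (log2 fold change -0.39, limma adjusted p = 0.206). Ahcy, which clears the product S-adenosylhomocysteine, stood at 95.7 and 72.0 FPKM against 61.4 and 61.1 FPKM (log2 fold change -0.43, limma adjusted p = 0.260). Both were below both controls in SUV-OE.

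Genes listed from general knowledge as germline genes silenced by promoter methylation in somatic cells were read as well. Their methylation was not measured. Of 20 listed genes 10 had an entry in the table, and only Ddx4, Taf9b and Tex101 passed the filter. None of them was called, and the median of the 3 log2 fold changes was 0.04. Taf9b, the single one without overlap, stood at 2.08 and 2.97 FPKM in the controls and at 1.52 and 1.39 FPKM in SUV-OE (limma adjusted p = 0.214).

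**Figure D4:**
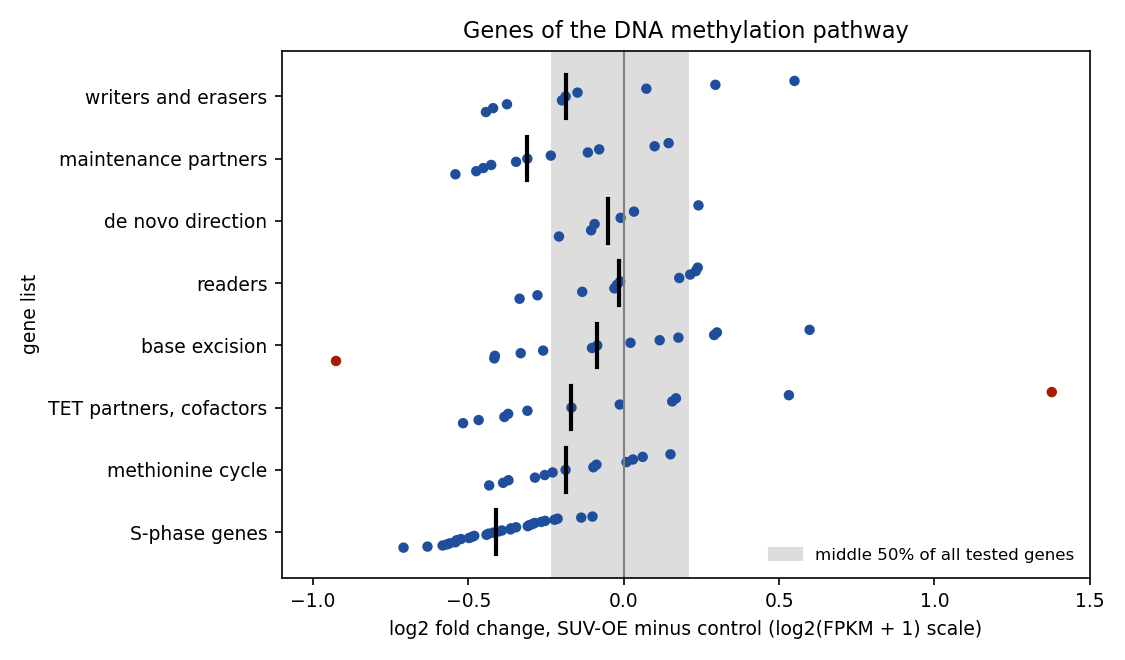
Log2 fold change (SUV-OE minus control) of each tested gene in 8 lists, with the list median as a black bar, genes with an adjusted p under 0.05 in red and the middle 50% of all tested genes shaded. Every S-phase gene lies left of 0, with a median of -0.41, and the called genes are Apex1 at -0.93 and Cxxc5 at 1.38. Cxxc5 entered the test through the SUV-OE libraries, since its control values were below the filter of 0.5 FPKM.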

How the data were processed

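RNA-seq libraries were made by the authors with a TruSeq kit and aligned to mm10 with TopHat2 (submitters' notes also name CASAVA 1.8). The deposited unit was FPKM, which the authors' methods credit to Cufflinks; the annotation release is not given in the sources used here. Values were tested on log2(FPKM + 1) by limma 3.58.1 under R 4.3.3, with group as the only term and an intensity trend. Benjamini-Hochberg adjustment ran over 13736 genes whose mean reached 0.5 FPKM. The authors called genes from counts; with FPKM deposited, a count test was not the main test. At the GENCODE M21 exon length, 78.5% of genes had whole reads in each library (tolerance 0.01), and 4930 more had them at another length, among them Dnmt1 and Tet1. Recovered reads with a mean of at least 10 entered limma-voom as an alternative, with the library sizes implied by the FPKM. Scripts were tested on simulated data. Floors cover counting error only.

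The 10 genes and all lists were chosen with earlier results of these data known. Named genes were the 10, Suv39h1, Trdmt1 and, of each other pathway list, the called genes or, where none was called, the 2 tested genes of largest absolute log2 fold change whose groups did not overlap; Taf9b was the single such germline gene. Kit was given as a defining marker and Flt3 was named after its values were seen. Alternatives changed the pseudocount, filter, scaling, variance model, test and threshold, or left out 1 library. Promoters came from RefSeq (GRCm38.p6). Protein sequences were not analysed here.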

Additional observations from a re-analysis of the deposited data

How the results depend on the processing

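The number of genes with an adjusted p under 0.05 was 177, of which 168 also changed by at least 1 on the log2 scale in either direction. The first number was 116 with a pseudocount of 0.1, and 666 at an adjusted p under 0.1 (342 with the fold change). With no filter on low values both were 0 (limma; 4177 genes had an unadjusted p under 0.05). Limma-voom on recovered reads called 872 (664), and scaled by total reads, an alternative chosen after seeing the data, 1005 (768). Leaving out any 1 library, where the lone sample is assumed to vary like the other group, gave 0 calls in either count, Suv39h1 included (limma; 1146 to 3895 genes at an unadjusted p under 0.05). None of the 10 genes was called except 1, Uhrf2, by limma-voom scaled by totals, which moved the median of all genes from -0.02 to 0.08.

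The median log2 fold change of the 9 tested genes, -0.19, was -0.11 with quantile normalization. Limma-voom scaled by totals, which also took in Tet1, gave -0.083 (0.083 over all genes). With 1 library left out the median of the 9 ranged from -0.25 to 0.011, reversing without control replicate 3. Dnmt1 was 0.0041 with quantile normalization and -0.41 to 0.011 with 1 library left out, where Tet2 ranged from -0.063 to 0.21 and Tet3 from -0.31 to 0.012. Of the pathway lists, the maintenance partners ranged from -0.37 to -0.15 with 1 library left out. The de novo list turned to 0.096 with quantile normalization and 0.044 with limma-voom scaled by totals (-0.10 to 0.064 with 1 library left out), the readers ranged from -0.048 to 0.10, and the excision list turned to 0.060 with limma-voom scaled by totals. The TET partners and cofactors were -0.17 with a pseudocount of 0.1, -0.018 with no filter, -0.040 with quantile normalization, -0.18 with median-of-ratios scaling, -0.094 with limma-voom and 0.0025 with limma-voom scaled by totals (-0.21 to -0.12 with 1 library left out). The methionine cycle was -0.093 with no filter, -0.11 with quantile normalization and -0.097 with limma-voom scaled by totals (-0.22 to -0.11 with 1 library left out), and the S-phase list -0.29 with quantile normalization. The Tet1 to Tet2 log2 ratio differed by 0.61 with no pseudocount, against 0.10 (0.0064 to 0.19 with 1 library left out). The fits with no filter and by limma-voom also took in listed genes below the filter of 0.5 FPKM. Limma-voom put the median of all genes at -0.01, and at 0.08 when scaled by totals. The part of each in these shifts was not tested. Of 171 values of single genes under alternatives, 145 kept direction and side of the threshold. Only Suv39h1, Apex1 and Cxxc5 had a call to lose, and the 20 values that lost it were all theirs.

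No paired analysis was possible because 3 is the single replicate number found in both groups. With 2 libraries per group, intervals on single genes were wide (for Dnmt1, -0.67 to 0.27). Tet1 rested on 54 to 113 reads per library.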
